A study of Mus musculus with 3 samples.

Results

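The genes described here carry the signals of the Bmp, TGF-beta and activin pathways: secreted ligands, their receptors, the intracellular Smad proteins, the Id target genes and secreted antagonists. A gene was included when its symbol stood on a list of 39 such genes and a probe set was annotated with that symbol alone. This held for 37 genes, of 17097 genes measured, through 69 probe sets. Bmp3 and Inhbb were not analysed here. The 37 comprised 11 ligand, 10 receptor, 8 Smad, 4 Id and 4 antagonist genes.

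Ligands of this superfamily are secreted dimers that bring type I and type II receptor kinases together at the cell surface. The type I receptor then phosphorylates receptor Smads, which join Smad4 and enter the nucleus: Smad1, Smad5 and Smad9 carry Bmp signals, and Smad2 and Smad3 carry TGF-beta and activin signals. In the embryonic mammary bud, Bmp signalling takes part in the exchange between epithelium and the mesenchyme around it, and TGF-beta is a known inhibitor of mammary duct growth.

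RNA was measured on 3 Affymetrix arrays, each from 1 litter, in mammary cells of mouse embryos at embryonic day 14. Each sample pooled the female embryos of its litter, carried the Lgr5-IRES-GFP reporter, and was sorted for strong CD49f staining and strong Lgr5 reporter signal. CD49f is the integrin alpha 6 chain of basal epithelium, and Lgr5 is a receptor for R-spondins. The arrays formed 1 group of biological replicates with no treatment, mutant or sorted control. A sample started from 813 or 2000 cells, a number that the labels do not tie to single samples.

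Because no second group exists, each gene was set against a background on its own array, the 95th percentile of 74 olfactory and vomeronasal receptor genes. This threshold was 6.14, 6.17 and 5.99 on the log2 scale for replicates 1, 2 and 3. A gene was called above background at an adjusted p under 0.05 (limma, one-sided, adjusted over all genes). The SE given with a distance from the threshold is limma's moderated SE, which draws on the variances of all genes. It can be too small for genes that are uneven over the arrays and too large for even ones. Of all genes, 9426 (55.1%) were called. Of 48 genes restricted to unrelated tissues, 14 were called as well, so a call close to the threshold is weak evidence of expression. Replicates 1 and 2 lay close together (r = 0.994 across probe sets), and replicate 3 stood apart (r = 0.942 and 0.944), with a median gene 0.22 higher than on the other arrays. Array values of different probe sets are not comparable as levels, so each gene is compared with the threshold and with itself. Distances from the threshold and list averages given side by side do not rank genes or lists by RNA level.

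Markers of epithelium and of mesenchyme were both present in the sorted samples. All 12 measured markers of mammary and basal epithelium were above background, and so were 11 of 12 markers of dermal and mammary mesenchyme. The keratin genes Krt5 and Krt14 stood 6.05 and 5.28 over the threshold and Trp63, the gene of p63, 4.42. The collagen genes Col1a1, Col1a2 and Col3a1 stood 6.88, 1.89 and 6.66 over it. Pdgfra, a receptor gene of fibroblasts, was the mesenchymal marker not above background (mean -1.21 from the threshold). The mean log2 value of the epithelial list was 9.73, 10.06 and 10.36 on replicates 1, 2 and 3, and that of the mesenchymal list was 10.16, 10.05 and 10.04. Of markers of other cells, 1 of 8 endothelial, 3 of 8 leukocyte, 2 of 7 skeletal muscle and 3 of 5 Schwann or neural genes were called. Several Bmp pathway genes are active in embryonic mesenchyme, and the part of mesenchymal RNA in the values below was not tested. In such pooled RNA, fewer cells of a type and less RNA per cell cannot be told apart.

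Of the 37 signalling genes, 31 (83.8%) were above background, beside 55.1% of all genes. An unadjusted p under 0.05 was found for 32 of the 37, beside 9737 of all 17097 genes. The median of the 37 genes stood 2.20 over the threshold on the log2 scale, beside 0.78 for all genes. By role, the calls were 8 of 11 ligands, 8 of 10 receptors, 8 of 8 Smads, 4 of 4 Id genes and 3 of 4 antagonists. On all 3 arrays, 31 of the 37 lay over the threshold, beside 58.6% of all genes. The genes not called were Bmp5, Bmp10, Bmp15, Bmpr1a, Bmpr1b and Nog. The count of 31 became 20 when the threshold came from genes restricted to unrelated tissues or from the brightest antigenomic control probe set. Under those 2 thresholds 33.1% and 31.6% of all genes were called.

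**Figure D1:**
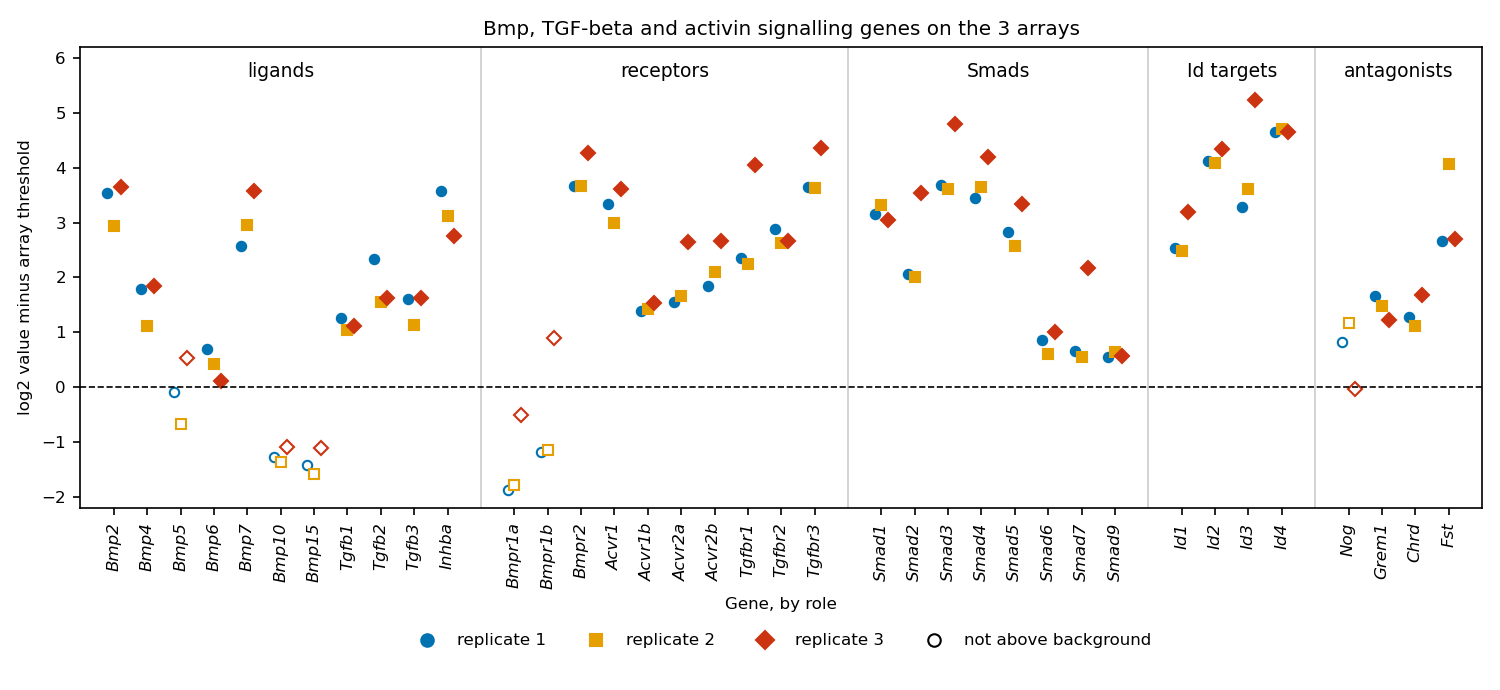
Log2 value minus the threshold of the array (vertical axis) for the 37 genes by role (horizontal axis), with 1 point for each of the 3 replicates and open points for genes not above background. The 31 genes with filled points lie above the dashed line on all 3 arrays, and Bmp10, Bmp15 and Bmpr1a lie below it on all 3.

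Among ligands, Bmp2, Bmp7 and Inhba were clearly above background, as they were in all 11 alternative settings. Bmp2, a ligand known from the epithelium of the mammary placode, had 9.68, 9.11 and 9.64 (log2) in replicate order, as for all genes below. This was 3.38 ± 0.20 (SE, n = 3) over the threshold (adjusted p = 7.21e-05). Replicate 2 was the lowest of the 3, by 0.56 against replicate 1. Bmp7, a ligand of epithelia that can pair with Bmp2 or Bmp4 chains, had 8.72, 9.12 and 9.56 (3.03 ± 0.24 over the threshold, SE, n = 3, adjusted p = 0.000158). Inhba encodes the beta A chain, whose dimer is activin A. Its values of 9.72, 9.30 and 8.75 were 3.15 ± 0.21 over the threshold (SE, n = 3, adjusted p = 9.89e-05). Bmp7 was highest and Inhba lowest on replicate 3.

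The remaining called ligands lay nearer to the threshold. Bmp4, which is known from the mesenchyme under the mammary bud, had 7.94, 7.29 and 7.83 (1.58 ± 0.21 over the threshold, SE, n = 3, adjusted p = 0.000949). All 3 TGF-beta genes were called. Tgfb1 had values of 7.41, 7.21 and 7.11 (adjusted p = 0.000775). Tgfb2 had 8.48, 7.73 and 7.62 (adjusted p = 0.000651), with replicate 1 the highest. Tgfb3 had 7.75, 7.30 and 7.62 (adjusted p = 0.000696). Bmp4 and the 3 TGF-beta genes were called in 9 of 11 settings and not under the threshold of tissue-restricted genes or antigenomic controls. Tgfb1 lay under both of those thresholds on average, by 0.05 and 0.14.

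Bmp6 stood at the edge of the call. Its values were 6.84, 6.59 and 6.10, with a mean of 0.41 ± 0.16 over it (SE, n = 3, adjusted p = 0.0488), and 7 of 11 settings did not call it. The call was lost without replicate 1 and without replicate 2 (adjusted p = 0.335 and 0.177). Bmp5, a Bmp of mesenchymal condensations, had 6.06, 5.50 and 6.51 and was over the threshold on replicate 3 alone. Bmp10, a ligand of the heart, had values from 4.81 to 4.90. Bmp15, a ligand of the oocyte, had values from 4.59 to 4.87. Neither reached the threshold on an array.

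The receptor genes were detected on both the Bmp and the TGF-beta side, except for the Bmp type I receptor genes Bmpr1a and Bmpr1b. Bmpr2, the Bmp type II receptor, had log2 values of 9.80, 9.84 and 10.25, 3.87 ± 0.19 over the threshold (SE, n = 3, adjusted p = 4.27e-05). Acvr1, which encodes the type I receptor ALK2 of Bmp signalling, had 9.49, 9.17 and 9.60 (adjusted p = 5.93e-05). Of the type I receptor genes for Bmp ligands on the list, Acvr1 was thus the called one. Bmpr1a encodes the type I receptor ALK3. Its single probe set had 4.27, 4.38 and 5.48, under the threshold on each array. Bmpr1b, the ALK6 gene, had 4.96, 5.03 and 6.89, so replicate 3 was over the threshold and the others were not. A second probe set of Bmpr1b had 5.44, 5.15 and 5.77 and was under it on all 3. Neither gene was called in any setting, and transcripts that these probe sets do not cover would not be seen.

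The 6 receptor genes of activin and TGF-beta on the list were all called. The activin type II receptor genes Acvr2a and Acvr2b, which also bind Bmp ligands, had 7.69, 7.84 and 8.63 and 7.99, 8.26 and 8.65. Acvr1b, the type I receptor gene of activin, had 7.52, 7.60 and 7.52 (1.45 ± 0.14 over the threshold, SE, n = 3, adjusted p = 0.000347). Its second probe set had 6.19, 6.52 and 8.71, so the evenness of the first over arrays did not hold for both. It lost its call under the thresholds of tissue-restricted genes and antigenomic controls (adjusted p = 0.166 and 0.372). Tgfbr1, the TGF-beta type I receptor gene, was uneven, at 8.50 and 8.41 on replicates 1 and 2 and 10.04 on replicate 3 (2.88 ± 0.40 over the threshold, SE, n = 3, adjusted p = 0.00122). Tgfbr2, its type II partner, had 9.02, 8.80 and 8.66 (adjusted p = 6.58e-05), with replicate 3 the lowest. Tgfbr3 encodes betaglycan, a co-receptor that presents TGF-beta2, and had 9.78, 9.80 and 10.35 (3.88 ± 0.21 over the threshold, SE, n = 3, adjusted p = 5.39e-05).

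Every Smad gene was above background. Smad1 and Smad5, of the Bmp branch, had log2 values of 9.31, 9.48 and 9.04 and 8.97, 8.74 and 9.32 (adjusted p = 4.37e-05 and 0.000117). Smad9, the third Smad of that branch, lay close to the threshold at 6.68, 6.82 and 6.55 (0.58 ± 0.13 over it, SE, n = 3, adjusted p = 0.00622). It was called in 5 of 11 settings, and leaving out replicate 1 or 2 ended its call (adjusted p = 0.0650 and 0.0839). Smad2 and Smad3, of the TGF-beta and activin branch, had 8.20, 8.17 and 9.53 and 9.83, 9.78 and 10.79. Both were highest on replicate 3. Smad4, the shared partner, had 9.59, 9.82 and 10.19, 3.77 ± 0.20 over the threshold (SE, n = 3, adjusted p = 5.26e-05).

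The inhibitory Smads, which are themselves induced by these pathways and act as feedback, were nearer to the threshold. Smad6, which acts mainly on Bmp signals, had 7.01 and 6.78 on the first 2 arrays and a value just under that of replicate 1 on the third (0.83 ± 0.15 over the threshold, SE, n = 3, adjusted p = 0.00315). Smad7, which acts on both branches, had 6.80, 6.71 and 8.17 (1.13 ± 0.36 over the threshold, SE, n = 3, adjusted p = 0.0264). For Smad7, replicate 3 was over 1 log2 unit above the other arrays, and the call was also lost at the 99th percentile of the receptor genes (adjusted p = 0.0992). Smad6, Smad7 and Smad9 each lay on average below the thresholds of tissue-restricted genes and antigenomic controls.

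Id genes encode helix-loop-helix proteins without a DNA-binding region that hold back differentiation factors, and they are well-known targets of Bmp Smads. All 4 were above background. Id1 had log2 values of 8.69, 8.66 and 9.18 (2.74 ± 0.21 over the threshold, SE, n = 3, adjusted p = 0.000143). Id2 had 10.27, 10.26 and 10.34 (4.19 ± 0.14 over the threshold, SE, n = 3, adjusted p = 2.06e-05). Id3 had 9.42, 9.78 and 11.22 (4.04 ± 0.41 over the threshold, SE, n = 3, adjusted p = 0.000376), the largest range among them. Id4 had 10.79, 10.87 and 10.64 (4.66 ± 0.12 over the threshold, SE, n = 3, adjusted p = 1.38e-05). On these probe sets Id2 and Id4 differed less between arrays than Id3. Other probe sets of both genes were higher on replicate 3, with 6.94, 7.17 and 9.58 for Id2 and 7.70, 7.87 and 8.69 for Id4, while Id3 had a single probe set. Id1 and Id2 rest on probe sets marked with the suffix a, for probes shared by several transcripts of a gene. Without such probe sets Id1 could not be measured and Id2 lay under the threshold (-0.57).

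The windows around the start sites of Id2, Id3, Id4 and Smad6 are shown because these genes are known as transcriptional targets of the Smads. RefSeq windows on GRCm38.p6, from 250 bases before to 50 after the gene start, were searched for 27 of the 37 genes. Smad2, Smad4 and Smad7 were among the genes not searched, so motifs at their start sites are not known here. Capitals mark 3 motifs searched on both strands, with reverse complements of each counted too. They are the Smad-type GTCTG, in 49.6% of all 32817 promoter windows of this length, the palindrome GTCTAGAC, in 0.213%, and GGCGCC, in 11.9%.
Id2, chr12:25096043-25096342, minus strand: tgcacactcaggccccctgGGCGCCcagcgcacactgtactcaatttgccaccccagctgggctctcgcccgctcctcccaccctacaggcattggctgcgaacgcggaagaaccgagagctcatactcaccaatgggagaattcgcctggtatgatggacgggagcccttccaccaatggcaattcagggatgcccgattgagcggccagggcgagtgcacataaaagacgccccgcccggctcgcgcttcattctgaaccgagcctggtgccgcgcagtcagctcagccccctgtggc
Id3, chr4:136143572-136143871, plus strand: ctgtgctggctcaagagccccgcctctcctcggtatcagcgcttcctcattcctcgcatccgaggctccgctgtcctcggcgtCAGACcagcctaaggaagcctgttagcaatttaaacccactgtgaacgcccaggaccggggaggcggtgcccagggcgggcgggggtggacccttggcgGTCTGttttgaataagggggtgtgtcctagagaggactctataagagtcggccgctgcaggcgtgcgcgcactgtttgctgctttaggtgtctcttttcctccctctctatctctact
Id4, chr13:48260866-48261165, plus strand: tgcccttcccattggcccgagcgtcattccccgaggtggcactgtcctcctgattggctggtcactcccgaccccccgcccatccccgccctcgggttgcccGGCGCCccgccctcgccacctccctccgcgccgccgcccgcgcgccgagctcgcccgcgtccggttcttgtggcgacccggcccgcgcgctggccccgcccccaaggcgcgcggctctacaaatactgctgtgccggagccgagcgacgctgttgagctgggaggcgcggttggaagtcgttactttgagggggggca
Smad6, chr9:64022010-64022309, minus strand: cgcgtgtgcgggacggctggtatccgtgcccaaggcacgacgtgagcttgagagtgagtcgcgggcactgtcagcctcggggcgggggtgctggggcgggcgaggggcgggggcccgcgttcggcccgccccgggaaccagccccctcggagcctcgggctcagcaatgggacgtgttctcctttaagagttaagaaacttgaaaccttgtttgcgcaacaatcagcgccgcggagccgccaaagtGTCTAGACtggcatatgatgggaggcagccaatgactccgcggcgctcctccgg
Id2 and Id4 each held 1 GGCGCC, and Id4 also held 1 GCCGNCGC. Id3 held 2 copies of GTCTG, the first of them on the opposite strand. Smad6 held the palindrome GTCTAGAC, whose first base lies 4 bases before the annotated start. Among the 28 listed genes with a window searched, Smad6 was the single gene to do so. This does not cover Smad7, the other inhibitory Smad gene, which was not searched. GGCGCC was present in a window of 10 of those 28 genes, GTCTG in 12, GCCGNCGC in 12 and TATAAA in 4. A gene with several windows counted if any of them held the motif. The shares above are per window, so the counts and the shares are not like for like. These matches describe the sequence, and no binding was measured.

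Secreted antagonists were detected for both the Bmp and the activin side. Fst encodes follistatin, which binds activins and some Bmps. Its log2 values were 8.81, 10.24 and 8.68, 3.14 ± 0.33 over the threshold (SE, n = 3, adjusted p = 0.000426). Replicate 2 was thus 1.43 above replicate 1, although these arrays were otherwise close. Of all genes, 25 (0.146%) were more than 2-fold higher on replicate 2 than on replicate 1, relative to the median gene. The second probe set of Fst had 6.29, 8.11 and 7.79, with replicate 2 again above replicate 1 and replicate 3 near replicate 2.

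Grem1 and Chrd, genes of the Bmp antagonists gremlin and chordin, had 7.81, 7.64 and 7.22 and 7.42, 7.29 and 7.67 (adjusted p = 0.000529 and 0.000914). Both were called on the receptor threshold and not on that of tissue-restricted genes (adjusted p = 0.289 and 0.365). Nog encodes noggin, which binds Bmp2 and Bmp4. It had 6.97 and 7.34 on replicates 1 and 2, and 5.95 on replicate 3 was just under the threshold of that array. Nog narrowly missed the call (0.65 ± 0.26 over the threshold, SE, n = 3, adjusted p = 0.0504). It passed on replicates 1 and 2 alone (adjusted p = 5.75e-06), but leaving out its lowest array was bound to raise its mean. Without replicate 1 or replicate 2 it did not pass (adjusted p = 0.0812 and 0.186).

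The arrays differed for some of these genes, which is described and not tested because each litter was measured once. Litter, starting cell number and array processing cannot be told apart here. Replicate 3 was set against the mean of replicates 1 and 2, relative to the median of all genes (0.22). Of the 37 genes, 5 (Bmpr1b, Id3, Tgfbr1, Smad7 and Smad2) were more than 2-fold higher on replicate 3, beside 6.0% of all genes. Nog and Fst were more than 2-fold lower, beside 3.12% of all genes. The relative log2 differences were 1.68 for Bmpr1b, 1.41 for Id3, 1.37 for Tgfbr1, 1.19 for Smad7 and 1.13 for Smad2, and -1.42 for Nog and -1.06 for Fst. For Fst the difference rests on the high value of replicate 2: replicate 3 against replicate 1 alone gave -0.34, and the second probe set gave 0.37. Bmpr1b was one of the genes not above background. The median over the 37 genes was 0.03, and by construction that of all genes was at 0. By role the medians were 0.33 for receptors, 0.25 for Smads, 0.07 for Id genes, -0.12 for ligands and -0.89 for antagonists. The antagonist median covers Nog, Fst, Grem1 (-0.73) and Chrd (0.10), and so depends on the Fst value that rests on replicate 2.

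Id3, Smad7 and Nog each have 1 probe set, so the mean of probe sets is no check of their differences. The 4 genes with several probe sets all came under 2-fold with that mean, Tgfbr1, Bmpr1b and Smad2 at 0.95, 0.94 and 0.64 and Fst at -0.37. On the same scale the mesenchymal markers were lower on replicate 3 in 10 of 12 cases (median -0.41), and the epithelial markers were higher in 9 of 12 (median 0.40). The part of this shift in the differences above was not tested.

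**Figure D2:**
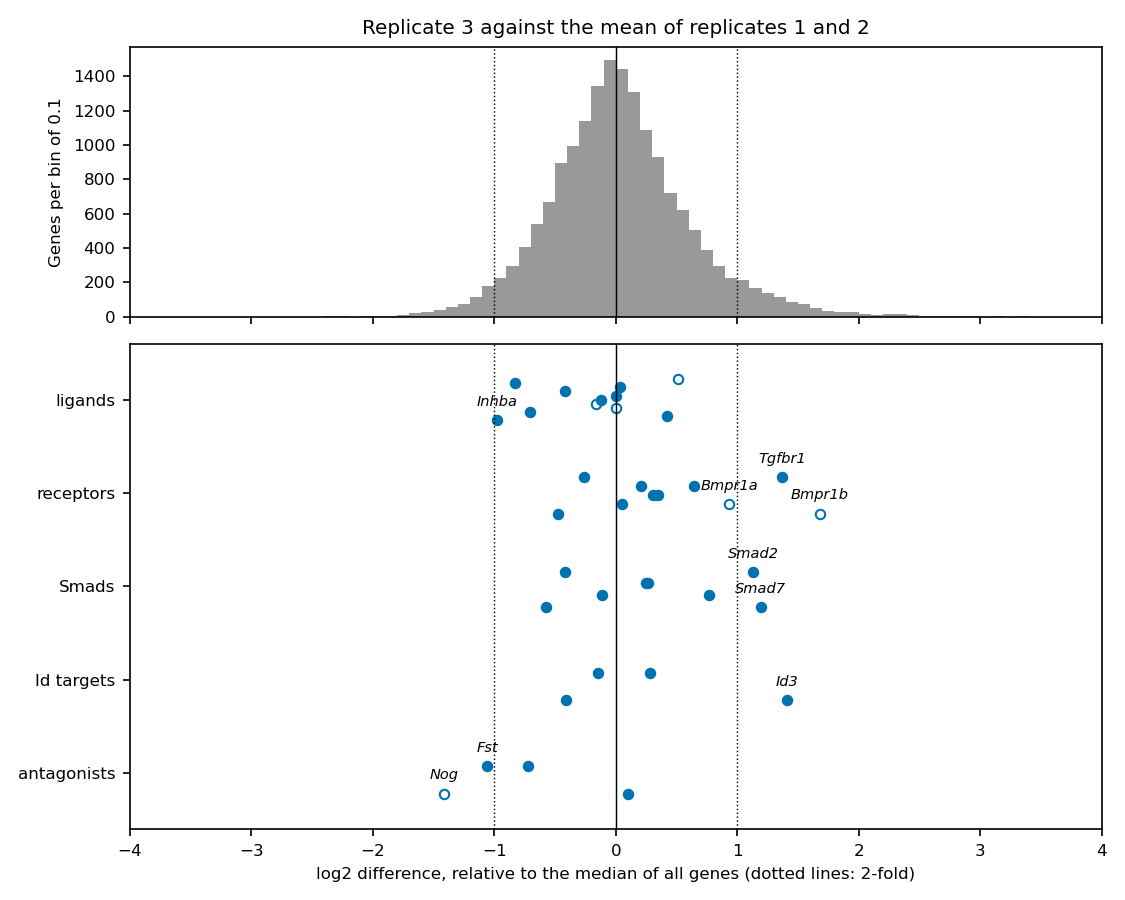
Log2 difference of replicate 3 from the mean of replicates 1 and 2, relative to the median of all genes (horizontal axis), as a histogram of all 17097 genes (top) and as 1 point per signalling gene by role (bottom, vertical jitter without meaning, open points not above background). Bmpr1b, Id3, Tgfbr1, Smad7 and Smad2 lie past the right dotted line and Nog and Fst past the left one, each line marking 2-fold.

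Probe sets of one gene differed widely in places. Of the 37 genes, 17 had 1 probe set and 20 had several. For 5 genes the probe sets lay on both sides of the threshold on average: Inhba, Tgfbr1, Tgfbr2, Id2 and Id4. The second probe set of Inhba had 5.31, 5.34 and 5.23, in contrast to 9.72, 9.30 and 8.75 of the first. For Tgfbr2 the lowest of 3 probe sets stood at -1.15 from the threshold and the highest at 2.73. On average over the arrays, probe sets of Smad4 lay between 3.05 and 3.77 over the threshold, and those of Smad2 at 2.39 and 2.53. The unevenness of a gene over arrays could also differ between its probe sets. This held for Id2, Id4 and Acvr1b, as given above, and for further genes. The relative replicate 3 differences of the probe sets were 1.13 and 0.20 for Smad2 and 1.68 and 0.26 for Bmpr1b. They were 1.37, 0.39 and 1.19 for Tgfbr1, and 0.77, -0.09 and 0.31 for Smad3. For Smad5 they were 0.25, 0.25 and 1.74, and for Tgfbr2 -0.47, -1.54 and -0.53. For Bmp7 they were 0.42, 0.97 and 1.20, and for Bmp5, which was not called, 0.51, 0.87 and 1.68. Those of Bmpr2 were alike, at 0.21 and 0.24. Further probe sets annotated with both Acvr2a and another gene were left out.

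**Figure D3:**
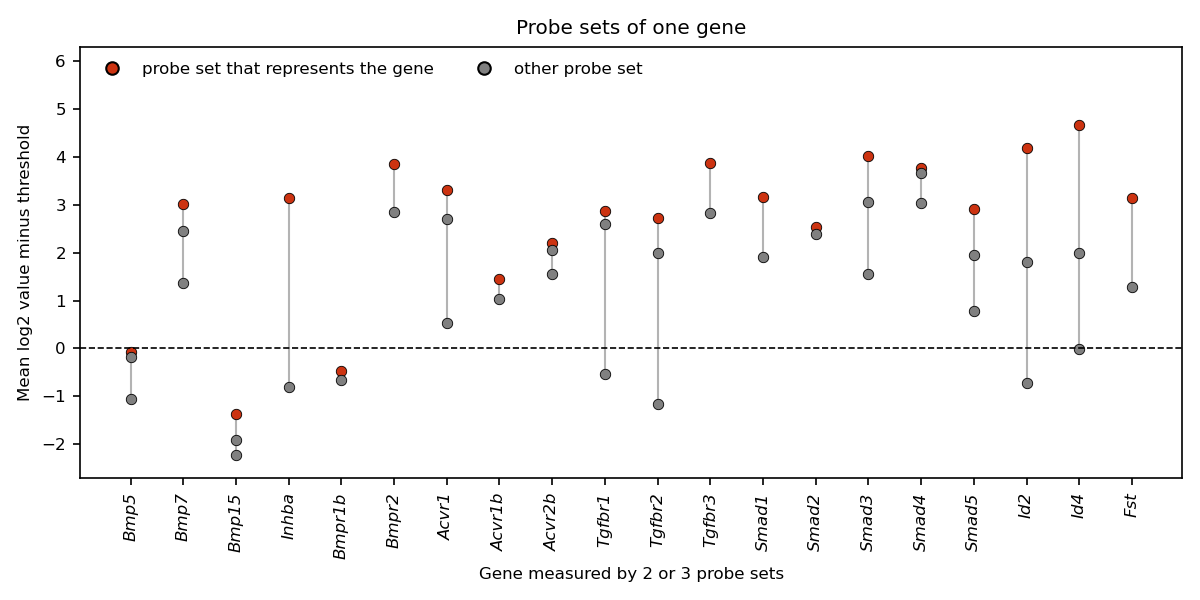
Mean log2 value over the 3 arrays minus the threshold (vertical axis) for each probe set of the 20 genes with several (horizontal axis), with the probe set that represents the gene in red and the others in grey. Inhba, Tgfbr1, Tgfbr2, Id2 and Id4 have points on both sides of the dashed line at the threshold.

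Other genes of the pathway were described through 6 further lists with 79 measured genes in all, of which 51 (64.6%) were above background, beside 55.1% of all genes. Intracellular regulators had 17 of 20 called, with a median of 3.04 over the threshold. They included the ubiquitin ligase genes Smurf1 (9.77 ± 0.09, SD, n = 3) and Smurf2 (9.64 ± 0.37), which target Smads and receptors, and the Smad corepressor gene Ski (11.62 ± 0.19). Zfyve16, an endosomal Smad anchor gene (4.39 ± 0.24), and Tab1, an adaptor of the kinase TAK1 (6.42 ± 0.30), were not called.

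Genes of latency and activation were called in 6 of 11 cases (54.5%), near the share of all genes. Latent TGF-beta is held in the matrix by binding proteins, and Ltbp1 (9.55 ± 0.27, SD, n = 3), Ltbp3 (9.66 ± 0.21) and Ltbp4 (10.15 ± 0.43) were called, whereas Ltbp2 had 4.74, 4.73 and 4.74. Nrros, which tethers latent TGF-beta on myeloid cells, was not called (5.21 ± 0.29). Secreted inhibitors and Bmp-binding proteins were called in 8 of 13 cases (61.5%). Sostdc1, an inhibitor of Bmp and Wnt signals in skin appendages, had 9.25, 9.24 and 8.67 (adjusted p = 6.68e-05). Nbl1 (8.24 ± 0.42) and Dand5 (8.16 ± 0.21), of the same cystine-knot antagonists, were called, and Sost (5.59 ± 0.12) and Cer1, which lay under the threshold on replicate 3 alone (5.35), were not.

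Further ligands were called in 7 of 15 cases, below the 55.1% of all genes, and 0 were called under the thresholds of tissue-restricted genes or antigenomic controls. Bmp8a (6.74 ± 0.64, SD, n = 3), Bmp8b (6.58 ± 0.06) and Gdf2 (6.80 ± 0.38) were close to the threshold, and Gdf3 (5.39 ± 0.10) and Gdf5 (5.54 ± 0.23) were not called. Their count fell to 4 without replicate 1 or replicate 2. Further receptors and co-receptors were called in 6 of 9 cases (66.7%). These included Acvrl1 (6.46 ± 0.05) and Eng (7.06 ± 0.22), receptor genes of endothelium, and Amhr2 (7.90 ± 0.34), the receptor gene of anti-Müllerian hormone. Acvrl1 was called in 3 of 11 settings and lost the call without replicate 1 or 2 (adjusted p = 0.185 and 0.196). Bambi, a decoy receptor, was uneven at 6.07, 6.22 and 7.31 and not called (adjusted p = 0.191), and Acvr1c, the activin receptor gene ALK7, was at 4.85 ± 0.07. Of reported target genes 8 of 14 (57.1%) were called, among them the cell cycle inhibitor gene Cdkn1a (10.07 ± 0.43), the matrix gene Tgfbi (6.71 ± 0.22) and Msx2 (7.02 ± 0.24), a homeobox gene of Bmp response. Tgfbi was called in 4 of 11 settings and lost the call without replicate 1 (adjusted p = 0.105). Ccn2 (5.41 ± 0.20), a TGF-beta target that encodes connective tissue growth factor, and Cdkn2b (5.41 ± 0.05) were not called.

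**Figure D4:**
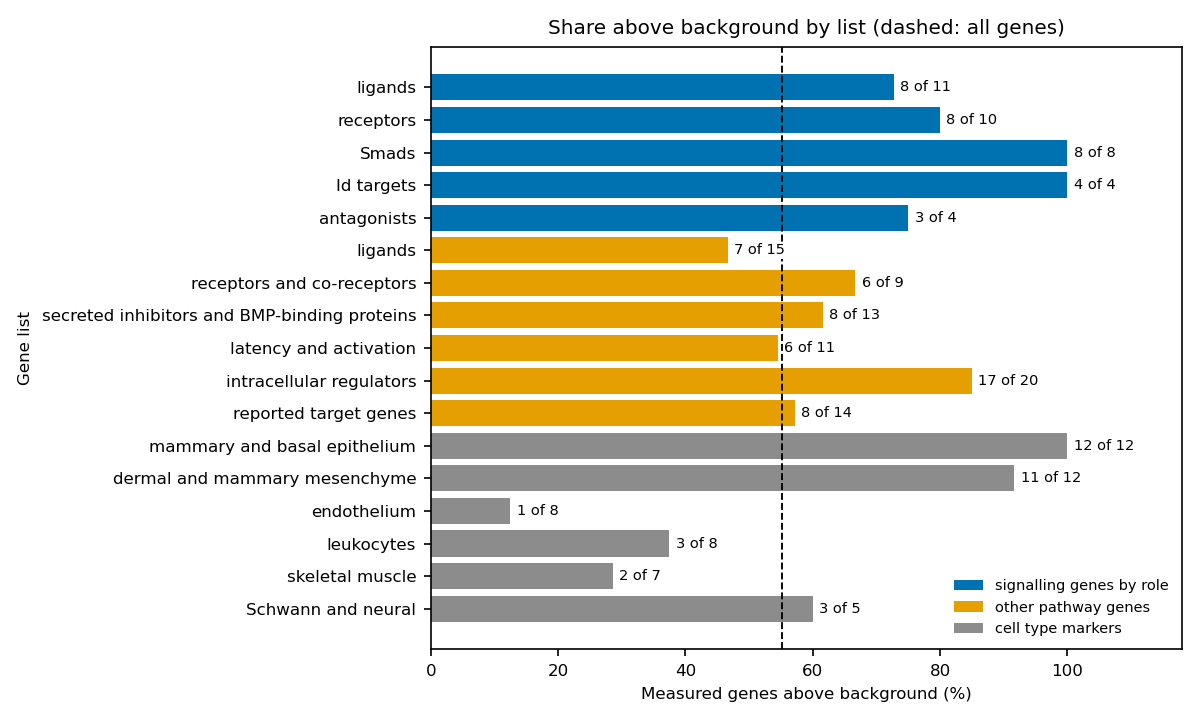
Percentage of measured genes above background (horizontal axis) for the roles of the signalling genes, the further pathway lists and the cell type markers (vertical axis), with counts at the bars and a dashed line at 55.1%, the share of all genes. Smads, Id genes and epithelial markers reach 100%, and the further ligands, the latency and activation genes (54.5%) and the endothelial, leukocyte and muscle markers lie under the line.

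Most calls did not depend on the setting. Of the 31 called genes, 19 were called in every alternative setting in which they could be measured. The 12 others lost the call in at least 1 setting. Of the 6 genes not called, Bmp5, Bmp10, Bmp15, Bmpr1a and Bmpr1b were called in none, and Nog in 3. The count of called genes was 28 at the 99th percentile of the receptor genes (47.8% of all genes), 32 with the mean of probe sets (53.1%), and 29 of 35 measurable genes without suffixed probe sets (53.9%). It was 31 with quantile normalization (55.3%) and 30 without the variance trend (54.9%). Without replicate 1, 2 or 3 it was 29, 29 and 32 (53.1%, 53.5% and 58.5% of all genes), and with replicates 1 and 2 averaged as 1 sample 29 (53.5%).

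**Figure D5:**
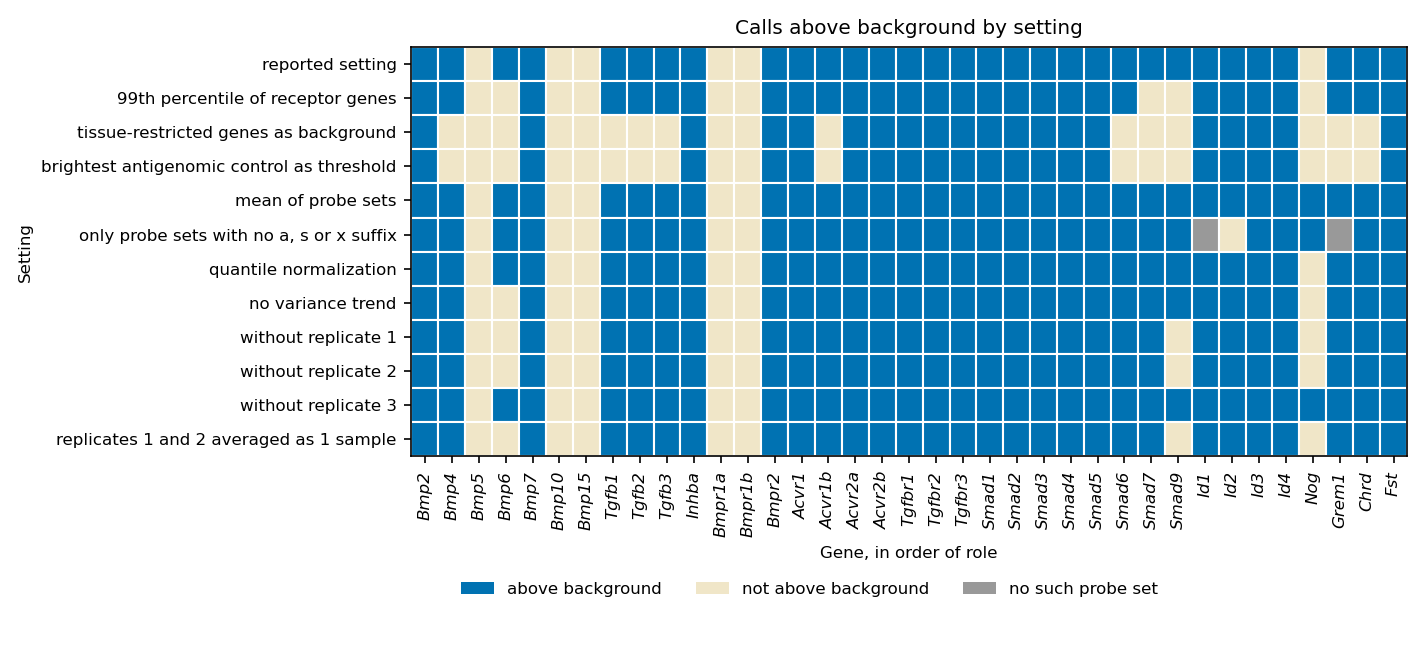
Call of each of the 37 genes (horizontal axis) in the reported setting and in 11 alternatives (vertical axis), in blue where above background at an adjusted p under 0.05, in beige where not, and in grey where no such probe set exists. The rows for tissue-restricted genes and for the antigenomic control hold 20 blue cells each, in contrast to 31 in the reported setting.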

How the data were processed

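Values are log2 expression per probe set as deposited by the authors, made with RMA and affy per the submitters' processing notes, which give neither versions nor settings. RMA in general compresses differences of weak probe sets, and whether the 3 arrays were normalized together is not given in the sources used here. With the values of each array sorted, those of equal rank differed by at most 0.058 between replicates 1 and 2. Against replicate 3 the largest such difference was 0.447 for replicate 1 and 0.446 for replicate 2. The cause of this was not tested. Per the labels' protocols, cDNA was amplified for 25 cycles. The table held 45141 probe sets, of which 28898 had 1 gene symbol in the platform annotation, 551 had several and 15588 had no listed gene; 104 were controls. Of several probe sets for a gene, the one with the highest mean was used.

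The array threshold was subtracted and an intercept was fitted with limma 3.58.1 (R 4.3.3; empirical Bayes with trend, one-sided test above 0, Benjamini-Hochberg over 17097 genes). The p-values leave out the uncertainty of the threshold. The number of arrays limited the precision. The step was also run on simulated data with independent noise on each array and a fixed threshold. Real arrays differ from that setting, so the run does not show that the calls hold for them. Alternatives changed the threshold, the probe sets, the normalization, the variance model and the replicates. The members, lists and rules were chosen with earlier results of these data known. Named were all measured members and, of each other list, the first 3 called and the first 2 others in list order; marker genes were named by the same rule, and most are given as counts. Further probe sets of members were named after their values were seen. Ctgf was measured under its symbol Ccn2. Python 3.11.15, numpy 2.4.6, pandas 2.3.3 and matplotlib 3.10.9 were also used.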

Additional observations from a re-analysis of the deposited data

How the results depend on the processing

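With tissue-restricted genes as background, 5665 genes were called, and with the brightest antigenomic control 5399. Under either of these, the counts were 20 signalling genes in all, 3 ligands, 5 Smads, 1 antagonist, 0 further ligands, 5 reported targets, 0 endothelial, 1 leukocyte and 0 muscle markers; further receptors fell to 3 under the antigenomic control. With the 99th percentile 3 further ligands were called. Probe sets without an a, s or x suffix gave 2 Id genes and 0 endothelial markers, and the mean of probe sets gave 2 endothelial markers. Averaging replicates 1 and 2, an alternative chosen after seeing the data, gave 4 further ligands. Leaving out 1 replicate at a time gave 4 to 8 further ligands and 1 to 2 endothelial markers, and 29 to 32 signalling genes. Quantile normalization changed no call of a signalling gene.

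Of the genes covered by the naming rule, those called whose mean lay under the alternative threshold were, with tissue-restricted genes, Bmp6 (-0.78), Tgfb1 (-0.054), Smad6 (-0.37), Smad7 (-0.070), Smad9 (-0.61), Bmp8a (-0.56), Bmp8b (-0.71), Gdf2 (-0.49), Acvrl1 (-0.84), Eng (-0.24), Tgfbi (-0.58), Msx2 (-0.28), Csf1r (-0.82), Fcer1g (-0.0045), Myod1 (-0.22) and Tubb3 (-0.25). With the antigenomic control they were Bmp6 (-0.87), Tgfb1 (-0.14), Smad6 (-0.45), Smad7 (-0.16), Smad9 (-0.70), Bmp8a (-0.64), Bmp8b (-0.80), Gdf2 (-0.58), Acvrl1 (-0.93), Eng (-0.33), Tgfbi (-0.67), Msx2 (-0.37), Csf1r (-0.91), Fcer1g (-0.092), Myod1 (-0.31) and Tubb3 (-0.33). With the 99th percentile it was Acvrl1 (-0.015), with the mean of probe sets Bmp8b (-0.050) and Msx2 (-0.28), and without suffixed probe sets Id2 (-0.57), Acvrl1 (-0.10) and Tgfbi (-0.53). The first sets follow from the higher threshold, and the last from the probe sets left.

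The median range over arrays of the called signalling genes was 0.71 on values minus the array threshold, beside 0.57 for all called genes. On the deposited log2 values it was 0.58, beside 0.49. It was 0.55 with each array's median subtracted, 0.57 with quantile normalization and 0.63 with the mean of probe sets. No paired analysis was possible because there was 1 group.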
